A study of Homo sapiens with 6 samples.

Results

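The genes described here are those of NF-kB itself and of its feedback loop: the subunit genes NFKB1, NFKB2, RELA and RELB, the IkB genes NFKBIA, NFKBIB and NFKBIE, the ubiquitin-editing inhibitor TNFAIP3 (A20) and its binding partner TNIP1 (ABIN-1), and the chemokine CXCL8 (interleukin-8) as an output. They were chosen by name, and every probe set whose single gene symbol was one of these 10 was taken, which gave 27 probe sets of the 49293 that were not array controls (10 of 18132 genes). All samples were HCT116, a human colorectal cancer cell line, collected 72 h after transduction with a lentivirus. In 3 samples it carried a short hairpin RNA against PNO1 (sh-PNO1), a factor of small ribosomal subunit assembly, and in the other 3 a control hairpin (sh-Ctrl). Lentiviral transduction, time and cell line were thus common to both groups, and the hairpin is the only difference that the labels name. The labels describe 1 PNO1 hairpin and 1 control hairpin in 1 cell line, and do not say whether replicates were separate cultures, so each p-value reflects the spread between 3 arrays a group, which may be technical. Expression was measured on Affymetrix arrays, 1 for each sample, and the 6 arrays limit the precision of every value.

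NF-kB is a dimer of Rel proteins that is held in the cytoplasm by IkB proteins until the IKK kinase complex marks the IkB for destruction. NFKB1 and NFKB2 encode precursors of the p50 and p52 subunits, which lack a transactivation domain of their own, while RELA and RELB carry one. Released dimers switch on the genes of their own inhibitors, among them NFKBIA and TNFAIP3, together with inflammatory genes such as CXCL8, so the levels of these messages are commonly read as an output of the pathway as well as its brake.

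The level of PNO1 served as the check of the labels. It had intensities of 105, 108 and 105 in sh-PNO1, against 535, 535 and 532 in sh-Ctrl, on its brightest probe set (log2 fold change −2.33 ± 0.04 SE, limma adjusted p = 3.32e-07; exact two-sided permutation p = 0.1, the smallest that 3 arrays against 3 allow). The summed intensity of 5 epithelial markers (EPCAM, CDH1, KRT8, KRT18, KRT19) was 9427 to 9780 in sh-PNO1 and 8670 to 9079 in sh-Ctrl; 2 of them, CDH1 and KRT19, passed as higher. That of 9 leukocyte, macrophage, endothelial and fibroblast markers was 158 to 161 in sh-PNO1 and 151 to 155 in sh-Ctrl, and the 9 had mean intensities of 3.72 to 36.6. A sign of RNA quality, the excess of the 3' over the 5' signal of ACTB, was 2.25 (log2) in sh-PNO1 replicate 2 and 1.73 to 1.87 in the remaining 5 samples, and the main count is given below also without that array. For GAPDH that excess lay at −0.08 to −0.06 in sh-PNO1 and −0.03 to −0.01 in sh-Ctrl, with no overlap; its part in the results was not tested.

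Several of these genes are textbook targets of NF-kB, and they did not move in 1 direction. The promoters of a pair that was lower in sh-PNO1, NFKBIA and CXCL8, and of a pair that was higher, TNFAIP3 and TNIP1, are shown for that reason, each from 250 bases before to 50 bases after an annotated start of transcription (RefSeq, GRCh38.p14, printed 5′ to 3′ on the strand of the gene). Capitals mark matches on either strand to the kB consensus (GGGRNNYYCC) or to the 9-base motif GGAATTTCC, and the 2 motifs can overlap. In the consensus R is A or G, Y is C or T and N is any base. NFKBIA lies at chr14:35404700-35404999 (minus strand), CXCL8 at chr4:73740319-73740618 (plus strand), TNFAIP3 at chr6:137867009-137867308 (plus strand) and TNIP1 at chr5:151080985-151081284 (minus strand).
NFKBIA: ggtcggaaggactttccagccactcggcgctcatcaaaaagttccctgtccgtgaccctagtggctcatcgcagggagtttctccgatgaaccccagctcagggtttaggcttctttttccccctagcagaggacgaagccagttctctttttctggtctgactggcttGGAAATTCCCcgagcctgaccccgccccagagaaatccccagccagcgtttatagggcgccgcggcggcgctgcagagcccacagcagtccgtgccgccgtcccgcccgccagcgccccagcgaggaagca
CXCL8: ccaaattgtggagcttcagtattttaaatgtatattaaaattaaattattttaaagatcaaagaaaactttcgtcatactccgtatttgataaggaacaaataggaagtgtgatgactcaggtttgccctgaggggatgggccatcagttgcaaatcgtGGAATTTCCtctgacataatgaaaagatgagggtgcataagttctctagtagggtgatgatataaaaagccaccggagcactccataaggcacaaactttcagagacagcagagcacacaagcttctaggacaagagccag
TNFAIP3: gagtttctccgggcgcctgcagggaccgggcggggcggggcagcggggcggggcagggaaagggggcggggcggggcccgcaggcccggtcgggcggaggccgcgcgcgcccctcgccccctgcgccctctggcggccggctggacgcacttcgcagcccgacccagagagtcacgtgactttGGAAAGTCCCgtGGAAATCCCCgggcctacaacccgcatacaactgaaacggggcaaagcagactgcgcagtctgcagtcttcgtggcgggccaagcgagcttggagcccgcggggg
TNIP1: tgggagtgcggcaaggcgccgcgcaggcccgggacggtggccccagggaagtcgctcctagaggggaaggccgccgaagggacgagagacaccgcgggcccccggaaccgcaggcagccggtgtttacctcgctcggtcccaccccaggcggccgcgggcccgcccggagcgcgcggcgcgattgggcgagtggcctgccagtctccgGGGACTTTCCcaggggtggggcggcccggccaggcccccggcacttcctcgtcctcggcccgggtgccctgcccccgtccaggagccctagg

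The consensus match of NFKBIA began 81 bases before the start and overlapped the 9-base motif, and CXCL8 held the 9-base motif 91 bases before its start. TNFAIP3 had a pair of consensus matches, 67 and 55 bases before the start, and TNIP1 had 1, 42 bases before; its other window (chr5:151065082-151065381) held none. The table held 14 windows for 8 of the 10 genes; RELB and NFKBIE were not among them. The kB consensus stood in 7 of these 14 windows (6 genes), against 11.3% of all 35116 promoter windows, and GGAATTTCC in 4 of 14 (NFKB1, NFKBIA, NFKBIB and CXCL8), against 0.461%. Matches were thus present in front of genes whose messages were lower and of genes whose messages were higher in sh-PNO1. They were also present in front of NFKB2, which did not pass, and of NFKBIB, which passed on 1 of 4 probe sets. Neither RELA window held a match. These are matches of letters, not measured binding. The genes were chosen by name and several are textbook targets, so their share of matches is not a result of these data.

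Intensities are the deposited linear values, and a probe set passed at a Benjamini-Hochberg adjusted p under 0.05 in limma, adjusted over all 49293 probe sets. Of the 27 probe sets 16 passed, 11 higher and 5 lower in sh-PNO1. Over all probe sets 28% passed, 14.8% higher and 13.2% lower, so that 13791 did so in all, 7306 higher and 6485 lower. With arrays scaled to equal means of 7 housekeeping genes the split over all probe sets was 10383 higher and 5293 lower. In 17 of the 27 the 3 sh-PNO1 arrays did not overlap the 3 sh-Ctrl arrays, 12 above and 5 below, against 40.2% of all probe sets (21.9% above and 18.3% below). The median log2 fold change was 0.14 over the 27 probe sets and 0.01 over all probe sets; by gene, on the brightest probe set, it was 0.08 over the 10 and 0.03 over all genes. The median size among the 16 that passed was 0.35 on the log2 scale, against 0.32 among all probe sets that passed. None of the 27 reached 2-fold in limma (18 had an unadjusted p under 0.05), and 449 of all probe sets did. Probe sets of 1 gene share its transcripts and TNIP1 alone supplied 6 of the 11, so these are not 27 separate observations. The count of 11 higher was 6 without sh-PNO1 replicate 3 and 6 without sh-Ctrl replicate 2, while it was 9 without sh-PNO1 replicate 2. The count of 5 lower was the same without any 1 array.

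**Figure D1:**
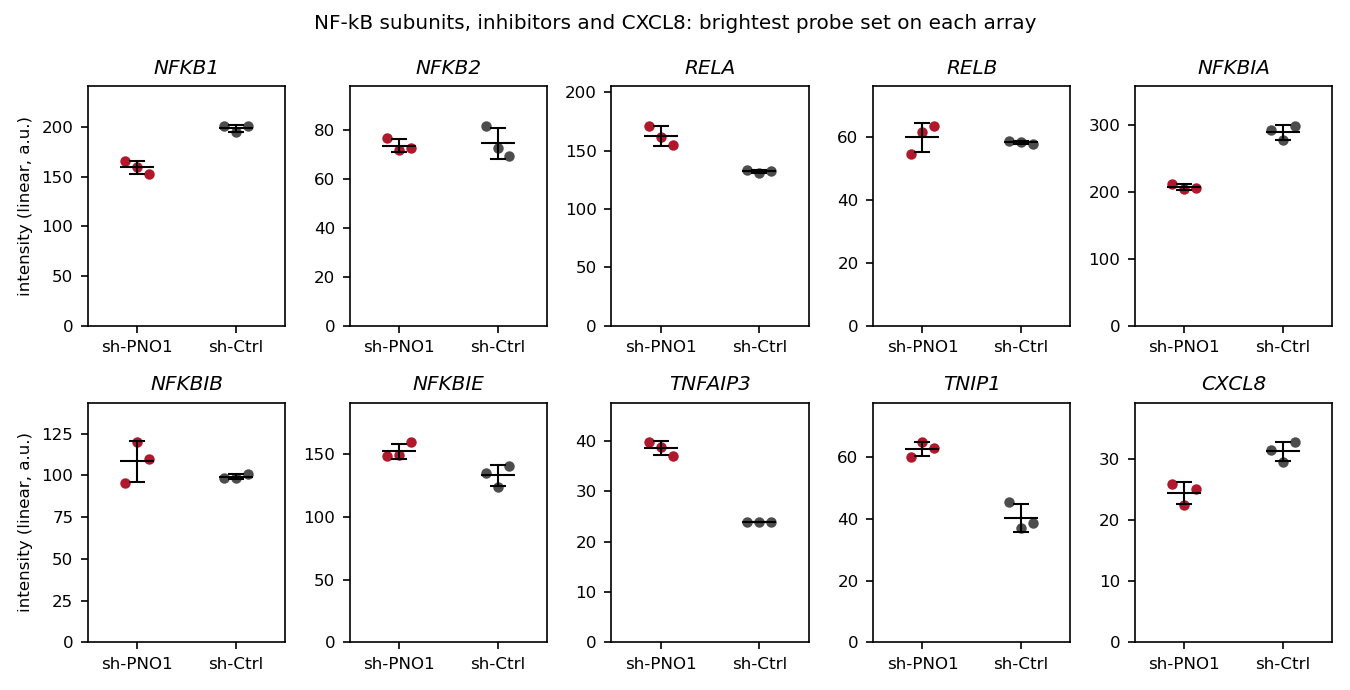
Intensity (linear scale, arbitrary units) of the brightest probe set of each of the 10 genes on the 3 sh-PNO1 arrays (left, red) and the 3 sh-Ctrl arrays (right, grey), with mean and SD as bars. NFKB1, NFKBIA and CXCL8 lie lower in sh-PNO1, RELA, NFKBIE, TNFAIP3 and TNIP1 lie higher, and NFKB2, RELB and NFKBIB overlap.

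The subunits of the canonical dimer went in opposite directions. NFKB1, which encodes p105 and its product p50, had intensities of 166, 160.1 and 153 in sh-PNO1, against 201, 195 and 201 in sh-Ctrl, on its only probe set. All 3 sh-PNO1 arrays were lower, and the message stood at 80.3% of control (log2 fold change −0.32 ± 0.05 SE, adjusted p = 0.00168). RELA, which encodes the transactivating p65 subunit, had intensities of 171, 162 and 154 in sh-PNO1, against 133, 131 and 132 in sh-Ctrl, on its brightest probe set. Every sh-PNO1 array was above every sh-Ctrl array there, a rise of 1.23-fold (0.29 ± 0.05 SE, adjusted p = 0.00302).

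The dimmer RELA probe sets gave less. The one at 11.2, 10.9 and 12.6 in sh-PNO1, against 10.8, 9.37 and 9.39 in sh-Ctrl, did not overlap between groups and stood at 0.23 (adjusted p = 0.0541), on the other side of the threshold by a small margin; it passed with arrays scaled to equal medians (adjusted p = 0.0486) or to equal housekeeping means (0.0228), and without sh-Ctrl replicate 1 (0.0292). The third, at 22.1, 20.9 and 20.8 in sh-PNO1 and 23.4, 20.8 and 21.5 in sh-Ctrl, overlapped and stood at −0.04 (95% interval −0.18 to 0.09, adjusted p = 0.641). With the 3 probe sets averaged RELA still passed (0.16, adjusted p = 0.0228).

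The subunits of the alternative pathway did not pass. NFKB2, which encodes p100 and its product p52, had intensities of 76.6, 71.6 and 72.5 in sh-PNO1, against 81.6, 72.7 and 69.3 in sh-Ctrl (−0.02, 95% interval −0.17 to 0.14, adjusted p = 0.886). RELB, its usual partner, had 54.7, 61.6 and 63.5 in sh-PNO1, against 58.7, 58.3 and 57.8 in sh-Ctrl (0.04, interval −0.10 to 0.18, adjusted p = 0.698). In both genes the groups overlapped; each has 1 probe set, and the intervals allow changes of up to 0.18 on the log2 scale.

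NFKBIA, which encodes IkB-alpha, the inhibitor resynthesised fastest after a pulse of NF-kB, fell on all 3 of its probe sets. The brightest had intensities of 212, 204 and 207 in sh-PNO1, against 294, 277 and 299 in sh-Ctrl. The next had 198, 201 and 204 in sh-PNO1, against 271, 237 and 250.4 in sh-Ctrl, and the dimmest 112, 125 and 119 in sh-PNO1, against 173, 160.4 and 168 in sh-Ctrl. On no probe set did a sh-PNO1 array reach the lowest sh-Ctrl array. The log2 fold changes were −0.48 ± 0.05 SE (adjusted p = 0.000195), −0.33 ± 0.06 (0.00326) and −0.49 ± 0.06 (0.000444), so that 71.0% to 79.6% of the control signal remained. No alternative setting ended any of the 3 calls.

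The other IkB genes did not follow NFKBIA. NFKBIE, which encodes IkB-epsilon, had intensities of 148, 149 and 159 in sh-PNO1, against 135, 124 and 140.0 in sh-Ctrl, on its only probe set. The groups were separate but close, a rise to 114.6% of control (0.20 ± 0.06 SE, adjusted p = 0.0393) whose call was lost on leaving out any single array other than sh-Ctrl replicate 3 (adjusted p = 0.0683 to 0.12). NFKBIB, which encodes IkB-beta, passed on 1 of 4 probe sets, with 44.9, 46.5 and 46.8 in sh-PNO1 and 39.8, 42.9 and 41.8 in sh-Ctrl (0.15 ± 0.05 SE, adjusted p = 0.0458). This call was lost on leaving out any single array (adjusted p up to 0.131) and in 4 of the other settings.

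The brightest NFKBIB probe set had 95.4, 119.7 and 110.0 in sh-PNO1, against 98.3, 98.3 and 101 in sh-Ctrl, so the groups overlapped because of sh-PNO1 replicate 1 (0.12, 95% interval −0.06 to 0.30, adjusted p = 0.304). The same array was the low one on a further probe set, with 38.9, 50.4 and 47.5 in sh-PNO1 and 38.9, 37.2 and 40.4 in sh-Ctrl (0.22, adjusted p = 0.118). Without that array these stood at 0.21 (adjusted p = 0.0326) and 0.33 (adjusted p = 0.00836). The last NFKBIB probe set stood at −0.05 (interval −0.24 to 0.13, adjusted p = 0.653), and the 4 averaged at 0.11 (adjusted p = 0.177).

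**Figure D2:**
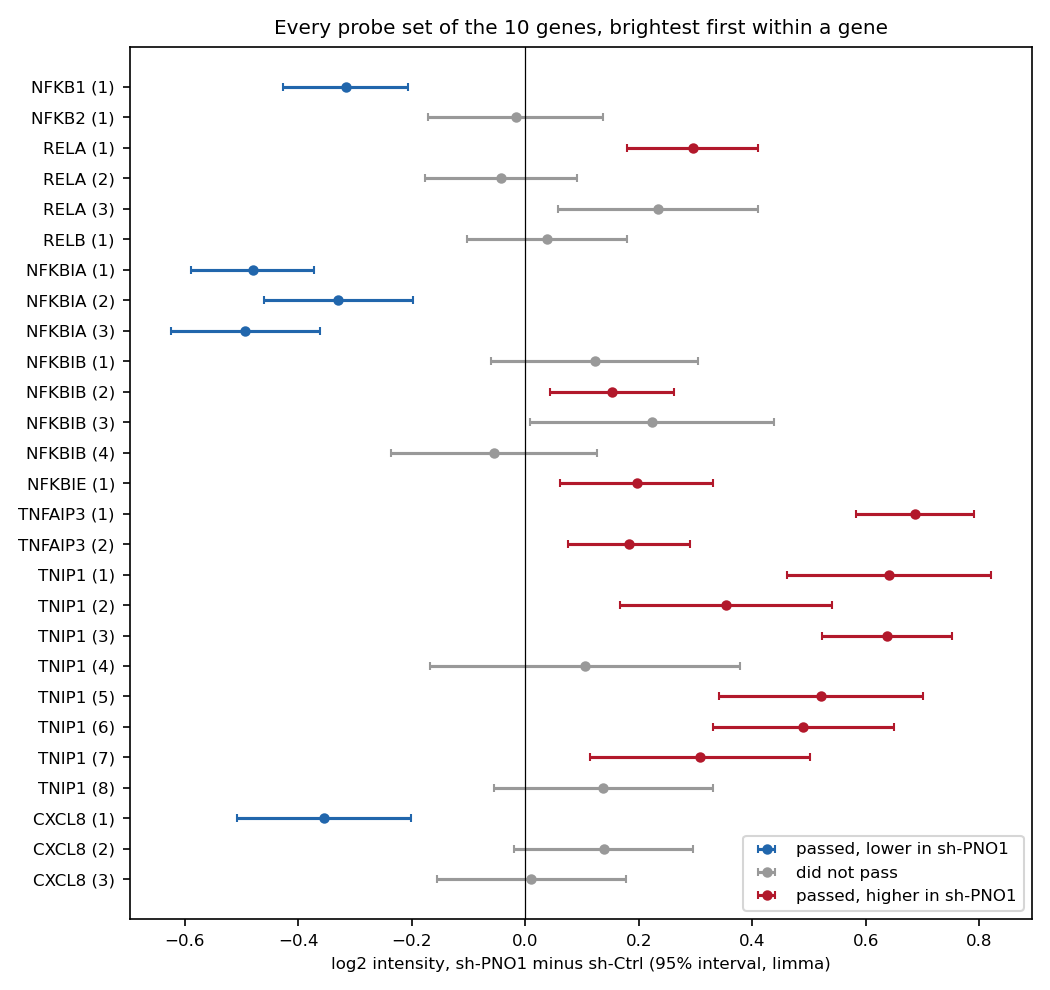
Difference in log2 intensity, sh-PNO1 minus sh-Ctrl, with its 95% interval from limma (x axis) for each of the 27 probe sets (y axis, numbered from the brightest within a gene). The 3 NFKBIA probe sets lie below 0 and both TNFAIP3 and all 8 TNIP1 probe sets above 0, 6 of the 8 passing.

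TNFAIP3, whose protein A20 trims and builds ubiquitin chains on signalling adaptors and so ends NF-kB activation, rose on both of its probe sets. The brighter had intensities of 39.7, 38.8 and 36.9 in sh-PNO1, against 23.9 on each of the 3 sh-Ctrl arrays. This was the largest fold among the 27 probe sets, 1.61-fold (log2 0.69 ± 0.04 SE, adjusted p = 2.68e-05). The deposited sh-Ctrl values were identical to the last digit, so their SD was 0 and the error comes from limma's pooled spread and the sh-PNO1 arrays; such ties occurred in 751 probe sets in sh-Ctrl (1.52%) and 651 in sh-PNO1 (1.32%). The dimmer probe set had 20.8, 19.8 and 20.9 in sh-PNO1, against 18.6, 17.8 and 17.7 in sh-Ctrl (0.18 ± 0.05 SE, adjusted p = 0.0202). Its groups did not overlap either, but the call was lost without sh-PNO1 replicate 1 or 3 or sh-Ctrl replicate 2 or 3 (adjusted p = 0.0534 to 0.0662). Averaged, the gene stood at 0.44 (adjusted p = 3.49e-05).

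TNIP1, which binds A20 and ubiquitin chains and restrains the same adaptors, rose on 6 of 8 probe sets and was above 0 on the other 2. The brightest had intensities of 60.2, 64.7 and 62.8 in sh-PNO1, against 45.3, 37.0 and 38.6 in sh-Ctrl (0.64 ± 0.08 SE, adjusted p = 0.000572). The third in brightness had 49.7, 49.7 and 47.3 in sh-PNO1, against 32.7, 30.03 and 31.6 in sh-Ctrl (0.64 ± 0.05 SE, adjusted p = 6.24e-05). On both, no array of a group entered the range of the other, and the rise was 1.56-fold. The other 4 that passed changed by 0.31 to 0.52. Of these the second brightest (0.35) lost its call without sh-PNO1 replicate 1 or 3 or sh-Ctrl replicate 2 (adjusted p up to 0.0565). The dimmest of them (0.31) lost it without any array but sh-PNO1 replicate 2 or sh-Ctrl replicate 3 (up to 0.105). Apart from the second brightest, they were dim, with mean intensities of 20.1, 17.5 and 10.1 in sh-PNO1, against 14.02, 12.5 and 8.16 in sh-Ctrl. These dim probe sets exceeded 15, 15 and 14 of the 23 background probe sets described below. With 16 added to every intensity before log2 they stood at 0.27, 0.23 and 0.11. The last lost its call there (adjusted p = 0.0522), and the others kept theirs. The pair that did not pass stood at 0.11 (95% interval −0.17 to 0.38, adjusted p = 0.561) and 0.14 (−0.06 to 0.33, adjusted p = 0.273). The probe sets of TNIP1 come from several source sequences, and some of them share the same one. Of the 8, 5 are of a type (suffix _x_at) that may also match other sequences. Averaged, they stood at 0.40 (adjusted p = 0.000352).

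**Figure D3:**
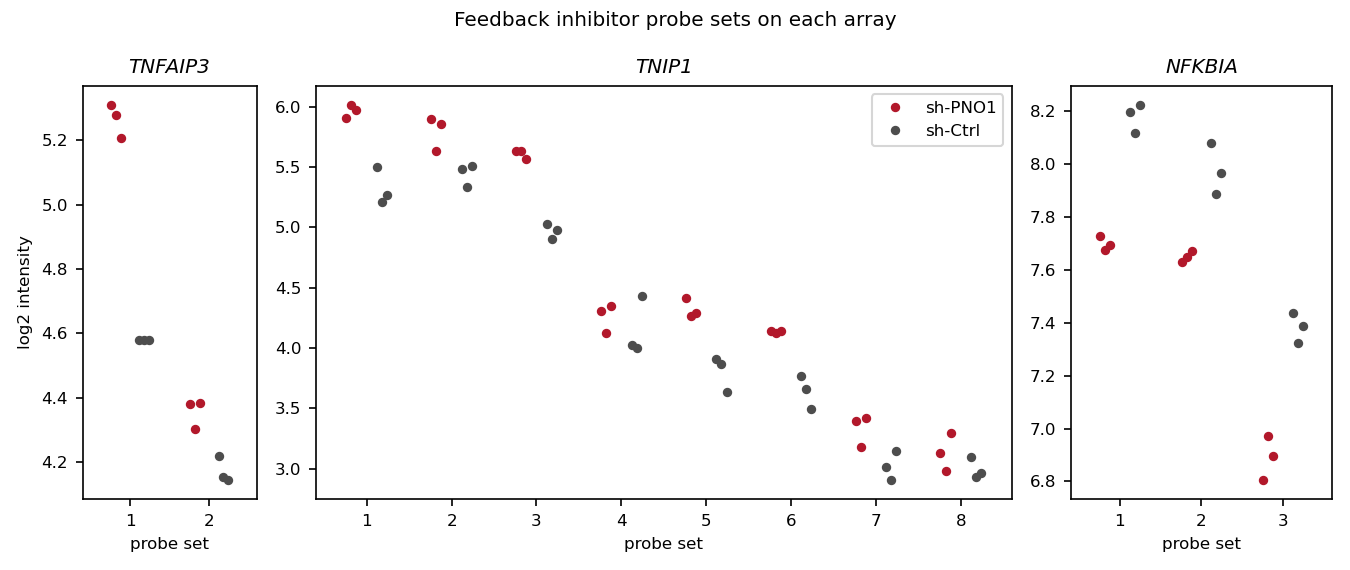
Log2 intensity (y axis) on each sh-PNO1 array (red, left of each pair) and sh-Ctrl array (grey, right) for every probe set of TNFAIP3, TNIP1 and NFKBIA, numbered from the brightest (x axis). Both TNFAIP3 probe sets and 6 of 8 TNIP1 probe sets have sh-PNO1 wholly above sh-Ctrl, and the 3 NFKBIA probe sets have it wholly below; the y axes differ in range.

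CXCL8, a neutrophil-attracting chemokine and a target of RELA in epithelial cells, fell on its brightest probe set, with intensities of 25.9, 22.4 and 25.1 in sh-PNO1, against 31.5, 29.6 and 32.7 in sh-Ctrl. The groups were separate, and 78.2% of the control signal remained (−0.35 ± 0.07 SE, adjusted p = 0.00508). The other CXCL8 probe sets were at intensities of 4.55 to 7.30 on every array, overlapped between groups and did not pass (0.14, adjusted p = 0.18, and 0.01, adjusted p = 0.935). Averaged with these, the gene stood at −0.07 (adjusted p = 0.185). The call for CXCL8 therefore rests on 1 probe set.

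How far the dim genes stand above background is limited. The array has 23 background probe sets that differ in GC content; that of the gene probe sets was not used here. Averaged over the 6 arrays, the brightest probe set of NFKBIA exceeded 22 of the 23 background probe sets, those of NFKB1, RELA and NFKBIE 21, that of NFKBIB 20, those of NFKB2 and RELB 19, that of TNIP1 18, that of TNFAIP3 17 and that of CXCL8 16. The background probe set nearest to CXCL8 in intensity averaged 28.7 in sh-PNO1 and 28.1 in sh-Ctrl. That nearest to TNFAIP3 averaged 33.7 in sh-PNO1 and 32.9 in sh-Ctrl. The brightest background probe set averaged 804 in sh-PNO1 and 741 in sh-Ctrl. The part of background in the results was not tested. With 16 added to every intensity before log2 the rise of the brighter TNFAIP3 probe set was 0.45 and the change of CXCL8 −0.22, and both still passed.

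The wider pathway was read from 4 lists of named genes, each gene by its brightest probe set; of all 18132 genes 18.4% passed as higher and 13.2% as lower on that measure, with a median log2 fold change of 0.03. Among 10 other Rel and IkB family genes and regulators 2 were higher and 2 lower, with a median of 0.11. COMMD1, which promotes the breakdown of RELA in the nucleus, fell most, with intensities of 62.2, 66.6 and 62.4 in sh-PNO1, against 136, 140 and 141 in sh-Ctrl (−1.12 ± 0.05 SE, adjusted p = 4.51e-06), on its only probe set. NFKBIZ, an inducible nuclear IkB, fell as well, with 33.3, 36.7 and 37.2 in sh-PNO1, against 45.5, 42.4 and 47.8 in sh-Ctrl (−0.34 ± 0.06 SE, adjusted p = 0.00523). ANKRD42 rose by 0.58 (averaged over its probe sets 0.35) and NFKBIL1, an IkB-like gene, by 0.39. REL, the remaining transactivating subunit, was named after its values were seen and did not pass (0.17, adjusted p = 0.105). Its intensities were 22.5, 23.0 and 25.0 in sh-PNO1 (mean 23.5), against 19.1, 21.8 and 21.8 in sh-Ctrl (mean 20.9). The groups of REL did not overlap. BCL3, an IkB that acts in the nucleus, was also named after its values were seen and did not pass either (−0.02, adjusted p = 0.846).

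Upstream of NF-kB, 24 of 27 listed receptors, kinases and adaptors were measured here, and 7 were higher and 4 lower, with a median of −0.01. TAB2, the adaptor that brings the TAK1 kinase to ubiquitin chains, had intensities of 221, 209.8 and 221 in sh-PNO1, against 335, 341 and 335 in sh-Ctrl, a fall on 4 of 4 probe sets (−0.64 ± 0.04 SE on the brightest, adjusted p = 3.33e-05). RBCK1, a subunit of the complex that makes linear ubiquitin chains, fell (−0.56, 3 of 4 probe sets, averaged −0.31), and so did TNFRSF1A, the main receptor for TNF (−0.50, 3 of 4). The receptor of interleukin-1, IL1R1, rose by 0.38 on 1 of its 2 probe sets (averaged 0.24). Of the IKK complex, named after its values were seen, CHUK fell (−0.28, adjusted p = 0.0125, lost in 2 of 9 alternatives) and IKBKB rose on 2 of 11 probe sets (0.32 on the brightest; averaged 0.07, adjusted p = 0.166), while IKBKG did not pass (−0.06, adjusted p = 0.584).

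Of 12 other brakes on the pathway 5 rose and 1 fell, with a median of 0.08. CYLD, a deubiquitinase of linear and K63-linked chains, had intensities of 45.6, 47.6 and 47.9 in sh-PNO1, against 27.8, 25.6 and 26.2 in sh-Ctrl (0.83 ± 0.05 SE, adjusted p = 1.79e-05; 2 of 4 probe sets, averaged 0.38). TAX1BP1, an adaptor through which A20 reaches its substrates, had 885, 859 and 917 in sh-PNO1, against 626, 634 and 638 in sh-Ctrl (0.49 ± 0.04 SE, adjusted p = 0.000133), and rose on 5 of 5 probe sets. RNF11, another member of the A20 complex, rose by 0.41 (1 of 2 probe sets, averaged 0.26), and TOLLIP, an inhibitor of interleukin-1 receptor signalling, by 0.54 (1 of 3 probe sets, averaged 0.19). The averages of CYLD, RNF11 and TOLLIP passed as well. The fifth that rose, the ubiquitin ligase ITCH (0.18), and the one that fell, the deubiquitinase OTUD7B (−0.24), were both near the threshold (adjusted p = 0.0471 and 0.0475), and each lost its call in 6 of 9 alternatives. With probe sets averaged ITCH stood at −0.0099 (adjusted p = 0.868), so its direction was not settled. OTUD7B, so averaged, stood at −0.17 and passed (adjusted p = 0.00492), and 2 of its 6 probe sets passed as lower.

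Of 42 listed textbook target genes 39 were measured here, and the shares that passed, 17.9% higher (7) and 10.3% lower (4), were near those of all genes (18.4% and 13.2%), with a median of 0.02. With probe sets averaged 5 were higher and 5 lower. Many of the 39 were dim. Named after their values were seen, TNF averaged 4.88 in sh-PNO1 and 4.88 in sh-Ctrl, and SAA1 3.27 in sh-PNO1 and 3.35 in sh-Ctrl. A dim gene that did not pass may have lacked the signal to do so, and this was not tested. The genes below are thus single genes, and the counts say nothing particular about the targets. F3, tissue factor, had intensities of 1243, 1162 and 1145 in sh-PNO1, against 560.4, 612 and 603 in sh-Ctrl (a rise of 2-fold with an SE of 0.05 on the log2 scale, adjusted p = 1.24e-05; 3 of 3 probe sets). BIRC2, which encodes the ubiquitin ligase cIAP1, had 687, 683 and 696 in sh-PNO1, against 461, 453 and 455 in sh-Ctrl (0.59 ± 0.04 SE, adjusted p = 3.1e-05; 5 of 5 probe sets). The 4 that fell were the early response gene IER3 (−0.79), the cytokine LIF (−0.68, 2 of 3 probe sets, averaged −0.46) and, named after their values were seen, PLAU, urokinase (−0.44), and CD83 (−0.50). The chemokines nearest to CXCL8, also named after their values were seen, did not pass: CXCL1 had mean intensities of 39.3 in sh-PNO1 and 39.3 in sh-Ctrl (−0.003, 95% interval −0.10 to 0.09, adjusted p = 0.968), CXCL2 stood at −0.07 (−0.21 to 0.07, adjusted p = 0.446) and CXCL3 at −0.07 (−0.28 to 0.14, adjusted p = 0.607). CXCL2 averaged 20.5 in sh-PNO1 and 21.45 in sh-Ctrl, and CXCL3 9.88 in sh-PNO1 and 10.4 in sh-Ctrl. CXCL1, CXCL2 and CXCL3 exceeded 18, 16 and 14 of the 23 background probe sets, against 16 for the brightest probe set of CXCL8. The part of low signal in these results was not tested.

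**Figure D4:**
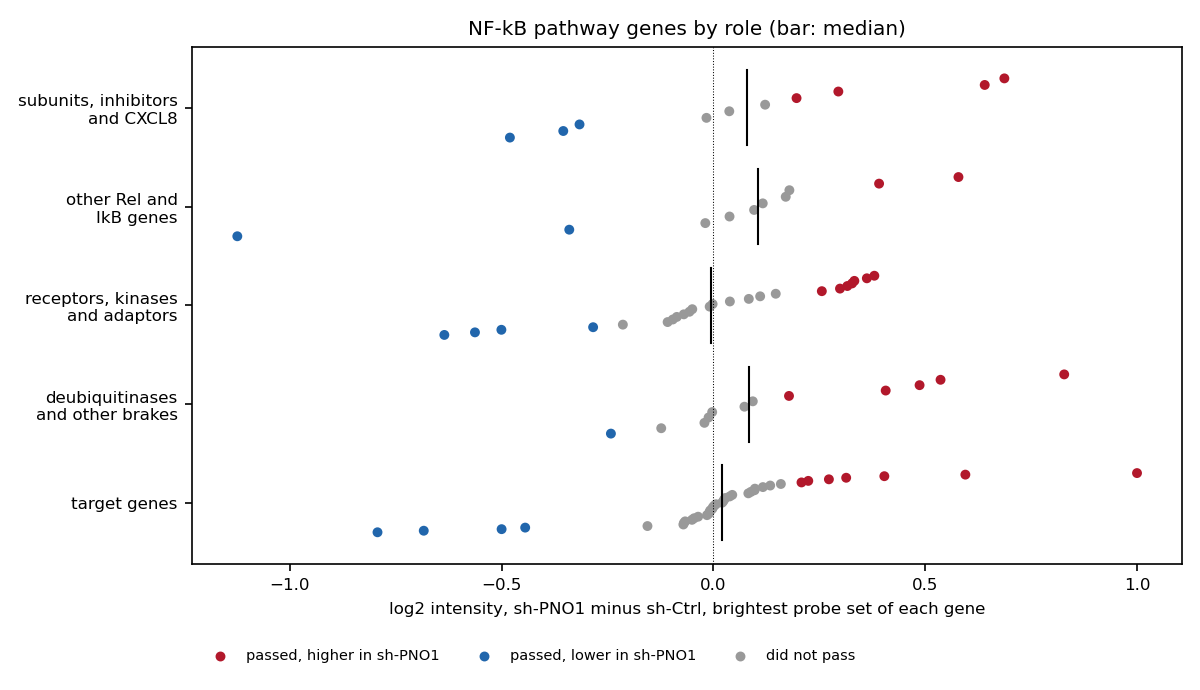
Log2 difference, sh-PNO1 minus sh-Ctrl, of the brightest probe set of each gene (x axis), grouped by role (y axis), with the median of each group as a bar and points coloured by whether they passed in limma. The medians lie between −0.01 and 0.11, and the spread of each group reaches both sides of 0.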

How the data were processed

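The authors deposited a table of linear intensity values, 49395 probe sets by 6 arrays, made with RMA (no version) per the submitters' processing notes; the background step is not given in the sources used here. Per the labels' protocols, total RNA was extracted with Trizol and 100 ng was made into biotinylated cRNA. Normalisation between arrays removes any change of total messenger RNA, so values are relative to the rest of each array. Median intensities were 25.6 to 25.9.

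Log2 was taken, 102 controls were dropped, and 49293 probe sets were fitted in limma 3.58.1 (R 4.3.3; lmFit, eBayes, no covariate). Symbols came from the platform table: 44988 probe sets had 1 gene, 1832 several and 2473 none listed. No detection calls or filter were used. The fit was tested on simulated data. The genes, lists and tests were chosen with earlier results of these data known. Named genes are all probe sets of the 10 genes, PNO1, and in each other list up to 4 genes of smallest adjusted p. ITCH and OTUD7B were named after their values were seen, to complete the counts of brakes that passed. Others are marked where they are named. Symbols that were not the only symbol of any probe set, among them TRAF2, RIPK1 and BIRC3, were not analysed here. Replicate numbers come from the titles. Same-numbered samples did not all deviate together (r = −0.04, 0.10 and −0.03), so no block was used. Among differently numbered samples, sh-PNO1 replicate 1 with sh-Ctrl replicate 3 had r = 0.07. The r of sh-PNO1 replicate 3 with sh-Ctrl replicate 1 was 0.09, and the rest were negative. Alternatives were other variance models, scalings, filters, probe set choices and each array left out.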

Additional observations from a re-analysis of the deposited data

How the results depend on the processing

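None of the 27 probe sets turned direction in a called result in any alternative run: of 396 comparisons of a probe set with an alternative, 362 kept their side of the threshold, 27 lost a call and 7 gained one. The 11 that kept their call in every alternative run were 1 of NFKB1, 1 of RELA, 3 of NFKBIA, 1 of TNFAIP3, 4 of TNIP1 and 1 of CXCL8. Those of RELA, TNFAIP3 and CXCL8 carry the suffix _s_at, and all but 1 each of NFKBIA and TNIP1 carry _x_at. The setting without these suffixes removed them and so could not test them. In it RELA and CXCL8 had no probe set that passed, and TNFAIP3 had only its dimmer one (0.18, adjusted p = 0.0249). Without probe sets of suffix _x_at or _s_at 8711 passed in all, 4 of these genes' probe sets higher and 2 lower, and with 1 probe set a gene 6185 passed, 4 higher and 3 lower; both settings test fewer probe sets. With single arrays left out 10834 to 11888 passed in all, 6 to 9 higher and 5 to 5 lower among the 27. Between the same settings the counts that passed ranged from 4 to 4 for other Rel and IkB genes, 10 to 12 for upstream genes, 4 to 6 for brakes and 9 to 10 for targets; PNO1 stood at −2.35 to −2.32. With probe sets averaged the lists had 6 (4 higher, 2 lower), 13 (7 and 6), 6 (4 and 2) and 10 (5 and 5). ITCH stood at −0.0099 (adjusted p = 0.868) with probe sets averaged, on the other side of 0; the cause was not tested. With the replicate number as a replicate block 12964 passed, 10 higher and 5 lower among the 27, PNO1 stood at −2.33, and the lists had 4, 11, 5 and 11; the NFKBIB call was lost (adjusted p = 0.0649), as was that of OTUD7B. Not every sample correlated best with its own number. RPLP0 was not analysed here, so the housekeeping scaling used 7 of 8 genes; under it 66.2% of all calls were higher, against 53.0% without it. Leaving an array out leaves 2 in its group, and small changes of dim probe sets are limited by signal over background.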
